A study of Mus musculus with 48 samples.

Results

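The genes of 3 conjugating enzyme families, the glutathione S-transferases (GST), the UDP-glucuronosyltransferases (UGT) and the cytosolic sulfotransferases (SULT), were followed in mouse liver by ribosome profiling with paired cytoplasmic RNA. Members were chosen by gene symbol alone: a symbol that opens with Ugt1 to Ugt3 and a letter, with Gst and one of the class letters a, k, m, o, p, t or z and a digit, or with Sult1 to Sult6 and a letter. The symbol Sult5a1, which fits this pattern, was left out by name. The rule gave 64 genes of the 20622 in the RNA files, namely 24 GST, 21 UGT and 19 SULT genes. Of these, 55 had a line in at least 1 of the RPF files, which listed 16269 transcripts over all libraries. Gstt4, Sult1c1, Sult2a4, Sult2a6, Sult2b1, Sult6b1, Sult6b2, Ugt2a1 and Ugt2a2 had no line in any RPF file.

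These enzymes carry out the conjugation step of detoxification, in which a polar group is joined to a foreign or endogenous molecule so that it can leave the cell and the body. Cytosolic GSTs join glutathione to electrophiles, UGTs of the endoplasmic reticulum transfer glucuronic acid from UDP-glucuronic acid to bilirubin, steroids and drugs, and SULTs transfer sulfate from PAPS, the activated sulfate donor, to phenols, steroids and bile acids. Hepatocytes are the main site of all 3 reactions. Many of these genes are expressed unevenly along the liver lobule, and several differ between male and female mice.

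Every sample is labelled male. The study's methods describe both sexes in general, and RNA of the Y-linked gene Ddx3y was at 356 to 734 counts in all 24 RNA libraries. The mice were 2 to 4 months old, and all, the wild-type controls included, received AAV8.TBG.Cre at 2e+11 genome copies (per mouse in 1 label field and per ml in another), an adeno-associated virus in which the hepatocyte promoter TBG drives Cre. Wild-type mice are called WT. Ctnnb1ex3/+ mice (B) lose exon 3 of 1 copy of the gene for β-catenin upon Cre, which stabilises the protein and switches on WNT signalling, R26-LSL-MYC mice (M) express MYC from the Rosa26 locus upon Cre, and Ctnnb1ex3/+; R26-LSL-MYC mice (BM) carry both alleles. Livers were taken 4 or 10 days after the virus, with 3 mice in each of the 8 groups and 24 mice in all. Cre acts in hepatocytes only, so other liver cells kept unrecombined alleles, and frozen pieces of liver were ground. In such bulk tissue, fewer cells of a type and less RNA per cell cannot be told apart.

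Each mouse gave 1 library of ribosome-protected fragments (RPFs), the stretches of mRNA covered by ribosomes, and 1 library of cytoplasmic RNA. RPF libraries held 9742197 to 14380713 counts over coding sequences, and RNA libraries held 3254141 to 6540116 estimated counts. Values per mouse are given as CPM, the RPF or RNA counts scaled to a common library total with TMM factors, mouse 1 to mouse 3 in order. Changes are log2 fold changes from edgeR's quasi-likelihood test with their standard errors (SE), and a gene is said to have risen or fallen at a Benjamini-Hochberg adjusted p under 0.1 over all genes tested. Translation efficiency (TE) is the change of RPFs beyond that of RNA. RPF CPM at the Myc gene was 2.43 to 18.3 in WT and 43.6 to 164 in M and BM mice. Whether these counts include reads of the MYC transgene was not tested, so they are a limited check of that allele. Glul, a β-catenin target, was at 511 to 862 CPM in WT and at 1629 to 5185 CPM in B and BM mice. A pair of libraries stood apart within their groups at day 10. In BM mouse 1 the summed RPF level of the zone 1 (periportal) marker list was 9519 CPM against 28050 and 29251 CPM in the other mice of its group, and in M mouse 3 the NRF2 target Srxn1 was at 29.8 CPM against 5.71 and 5.93 CPM. Calls of members against WT that changed without either of these libraries are given after the counts.

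Members of some subfamilies share long identical stretches, so that reads from these match more than 1 gene, and 3 sets of coding sequence, read on GRCm39, are shown for their differences. Gstp1 and Gstp2, which encode pi-class GSTs, differed at 12 of 633 coding bases. Their coding bases 271 to 330, in exon 5 of both genes on the minus strand, differed at the 5 positions in capitals, and Gstp1 lay at chr19:4086694-4086753 and Gstp2 at chr19:4090988-4091047.
Gstp1: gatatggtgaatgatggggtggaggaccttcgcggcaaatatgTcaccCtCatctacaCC
Gstp2: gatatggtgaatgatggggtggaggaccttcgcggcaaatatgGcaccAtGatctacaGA

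Ugt2b5, Ugt2b37 and Ugt2b38 encode UGT2B enzymes from 1 cluster on chromosome 5. Ugt2b5 and Ugt2b38 were 97.05% identical over 1593 coding bases, and Ugt2b37 was 94.66% identical to Ugt2b5 and 94.1% identical to Ugt2b38. Coding bases 1467 to 1526, in exon 6 on the minus strand at chr5:87273139-87273198, chr5:87388686-87388745 and chr5:87558134-87558193 in this order, are shown because they hold many of the differences, at the 11 positions in capitals.
Ugt2b5: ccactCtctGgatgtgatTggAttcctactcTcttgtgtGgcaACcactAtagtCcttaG
Ugt2b37: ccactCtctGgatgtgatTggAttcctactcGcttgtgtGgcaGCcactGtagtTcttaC
Ugt2b38: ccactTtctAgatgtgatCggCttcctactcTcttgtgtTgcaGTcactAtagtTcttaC

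The Ugt1a genes share the later exons of 1 locus on chromosome 1 and differ in a long exon of their own. The junction of 3 members is shown with the last 30 bases of the member's own exon in capitals (Ugt1a1 at chr1:88140564-88140593, Ugt1a9 at chr1:87999371-87999400 and Ugt1a6a at chr1:88067024-88067053, plus strand) and the shared 30 bases that follow (chr1:88142766-88142795) in lower case.
Ugt1a1: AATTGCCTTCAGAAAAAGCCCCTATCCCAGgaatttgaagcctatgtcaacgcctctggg
Ugt1a9: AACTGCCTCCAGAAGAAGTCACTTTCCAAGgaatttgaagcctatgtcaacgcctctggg
Ugt1a6a: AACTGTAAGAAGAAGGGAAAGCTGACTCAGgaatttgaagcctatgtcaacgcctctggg

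Sequence sharing was measured as the share of 33-base windows in a member's counted coding sequence that also occurred in another member. It was 95.1% for Gsta1, 83.9% for Gstp1 and Gstp2, 76.2% for Ugt1a6a, 61.9% for Ugt2b5, 57.8% for Ugt2b38, 46.4% for Gstm3 and 35.5% for Gstm1. It was 10.5% for Gstm2, 7.1% for Gstm4 and 1.1% for Gsta3, whereas Gsto1, Sult1a1, Sult1d1, Sult1e1, Sult2a7 and Sult2a8 shared no window. The files showed uneven splitting of such reads. Over all libraries there were 72.03 RPF counts per RNA count for Gstp2 and 1.756 for Gstp1, 29.5 for Ugt2b37 and 0.2488 for Ugt2b38, and 17.9 for Gsta1 and 0.03003 for Gsta13. For this reason counts were also summed over each subfamily and tested as further rows of the same fits, and a difference in level between members that share windows may come from how their reads were split.

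**Figure D1:**
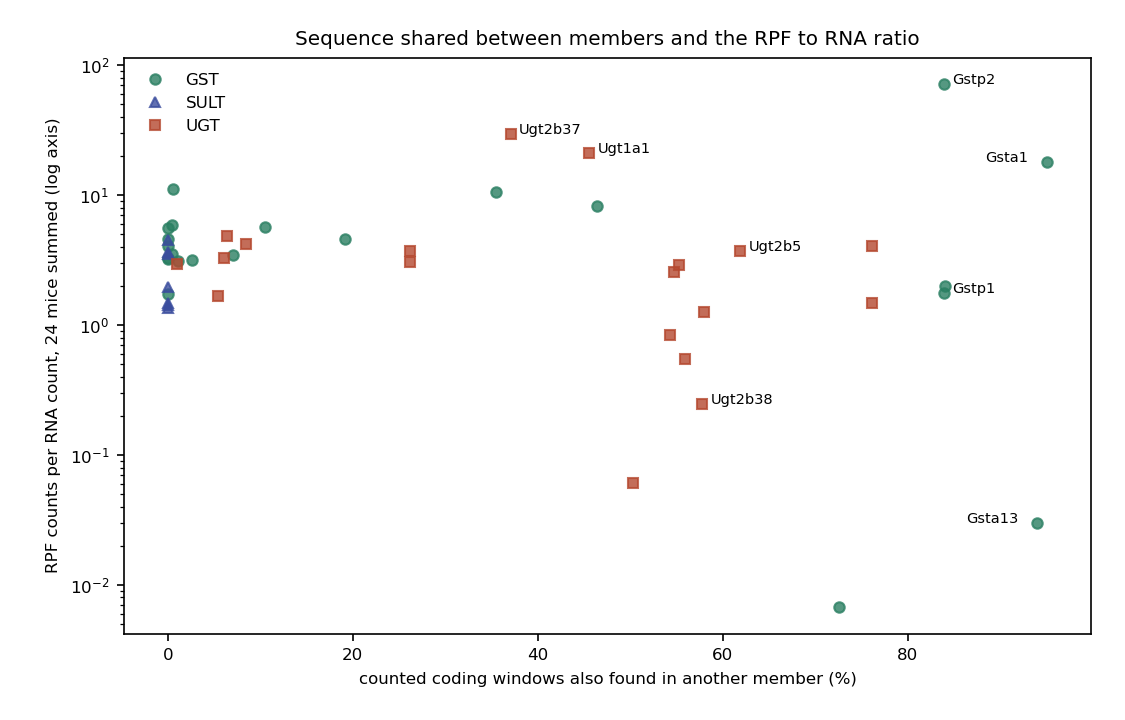
RPF counts per RNA count over all 24 mice (log axis) against the percent of 33-base coding windows shared with another member, 1 point per member. Members with many shared windows spread the most, from 0.006701 RPF counts per RNA count (Gsta5) to 72.03 (Gstp2).

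Per length, by the authors' TPM values in the 6 WT mice of both days, Gsta3 (alpha class) had the highest RNA level, 1559.6 TPM ± 259.8 (SD). Ugt2b5 followed at 964 TPM ± 154, then Gstp1 at 795 TPM ± 189.8, Gstm1 at 651 TPM ± 198, Gstz1 at 634 TPM ± 153 and Sult2a8 at 632 TPM ± 135. Each gene after Ugt2b5 in this order lay within 1 SD of the gene before it, so their order is not resolved. The levels of Ugt2b5, Gstp1 and Gstm1 also depend on how reads shared with other members were split. Sult3a1 and Sult4a1 were near 0 in RPFs, with at most 0.854 and 0.226 CPM in any mouse.

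In B livers at day 4, 19 of 44 tested members rose and 1 fell in RPFs, where 6.21% and 6.27% of all genes tested rose and fell (both shares are given in this order hereafter). The median change was 0.31 (log2) over the members tested and -0.01 over all genes. By family, 12 of 20 GST genes, 5 of 19 UGT genes and 2 of 5 SULT genes rose, and the member that fell was Ugt2b38. At day 10 the B mice showed 10 members higher and 15 lower of 45 (all genes, 13.1% and 12.1%), and the lower ones were 10 UGT and 5 GST genes. The median at day 10 was -0.12 over the members tested and 0.01 over all genes.

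In M livers at day 4, 12 members rose and 15 fell of 44 (all genes, 18.5% and 14.8%), with 9 of 18 tested UGT genes and 6 of 20 GST genes lower and 4 of 6 SULT genes higher. At day 10 the counts were 3 higher and 14 lower of 45 (all genes, 10.6% and 8.81%). The medians were -0.09 and -0.27 at day 4 and day 10, against 0.01 and -0.0 over all genes. The count at day 10 rested in part on single libraries: it was 9 without M mouse 1, 10 without WT mouse 1 and 9 without WT mouse 3, but 23 (4 higher and 19 lower) without M mouse 3, against 17 with all mice.

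In BM livers at day 4, 17 members rose and 17 fell of 44, where 26.2% and 24.7% of all genes did. GST genes made up 13 of the risers, and UGT genes made up 10 of those that fell. At day 10, 10 members rose and 25 fell of 46 (all genes, 24.5% and 22.3%), and the 25 were 14 UGT, 9 GST and 2 SULT genes. The median change at day 10 was -0.57 over the members tested and 0.03 over all genes, and at day 4 it was -0.04 and 0.00. By family the medians at day 10 were -1.0 for UGT and -0.35 for GST genes. That of the 7 SULT genes tested was 1.71, but Sult1e1 and Sult2a1 among them passed the filter on low counts only through BM mice. WT libraries of day 10 held at most 3 and 0 RPF counts of them, so nothing is read from the sign of this median. Both are also among the 10 members that rose. The B, M and BM comparisons of a day share their WT mice.

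**Figure D2:**
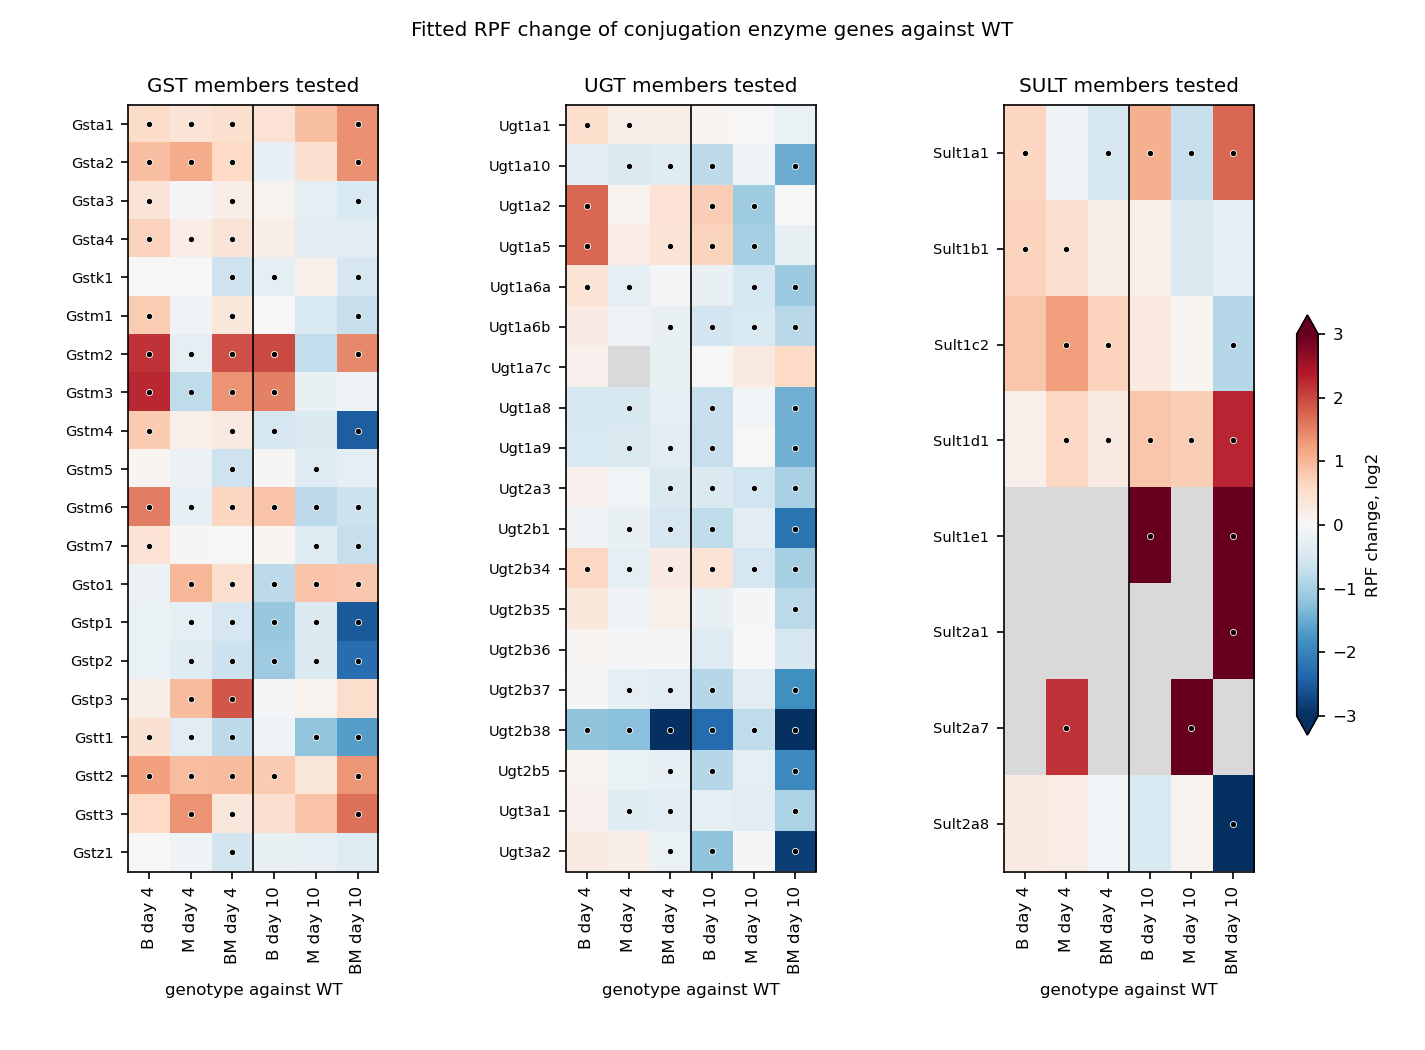
Fitted log2 change in RPFs against WT of the same day for each tested member (rows, by family) in B, M and BM mice (columns), with called changes marked and untested cells in grey. BM at day 10 holds the most falls, 25 of 46 members, and B at day 4 the most rises, 19 of 44.

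In RNA, 23 members rose and 0 fell of 46 in B mice at day 4 (all genes, 4.41% and 3.74%), with 26 members at an unadjusted p under 0.05 and 20 calls in DESeq2. At day 10, 8 rose and 7 fell of 46 (all genes, 8.14% and 7.47%). In M mice 10 rose and 6 fell of 47 at day 4 (all genes, 13.5% and 10.4%) and 4 rose and 10 fell of 47 at day 10 (all genes, 8.51% and 7.11%). In BM mice 15 rose and 11 fell of 46 at day 4 (all genes, 21.2% and 20.7%) and 12 rose and 25 fell of 47 at day 10 (all genes, 22.9% and 23%). As in RPFs, most of the lower genes in BM mice at day 10 were UGT genes, 16 of the 19 tested. Among these, Ugt1a6a, Ugt1a6b, Ugt1a7c, Ugt1a8, Ugt1a9 and Ugt1a10 share the later exons of 1 locus, so their falls are not separate results. The RNA of the Ugt1a sum changed by -0.56 (edgeR, adjusted p = 0.0318).

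Without M mouse 3 at day 10, 6 further members were called on RPFs in M mice, and 24.5% of all genes were called in either direction. These were Gsta4 (-0.61), Gstm1 (-0.74, adjusted p = 0.0145, against -0.46, adjusted p = 0.22, with all mice), Gstm2, Gstm3, Gstm4 (-0.60) and Gstk1 (0.30). The mu-class sum went from -0.47 ± 0.23 (adjusted p = 0.232) to -0.78 ± 0.16 (adjusted p = 0.0127). Gsta1, of the alpha class, was not called either way and went from 0.91 to -0.15 ± 0.18. On RNA, Gstm1 (-0.76), Gstm3 (-1.41), Gstm4 (-1.02) and the mu-class sum (-0.81) were called and Ugt3a1 (-0.45) lost its call, where 14.7% of all genes were called.

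Without BM mouse 1 at day 10, 40 of 48 members were called on RPFs in BM mice (all genes in either direction, 66.3%), against 35 with all mice. The further calls were Gstm5 (-0.63), Gstz1 (-0.28), Ugt2b36 (-0.35), Sult2a2 and Sult2a5. The last pair did not pass the filter on low counts with all mice. They had 60 and 44 counts (Sult2a2) and 12 and 13 counts (Sult2a5) in BM mice 2 and 3, 11 and 8 in BM mouse 1 and 0 in every WT mouse of day 10. On RNA, Gsta3 (-0.88), Gsta4 (-0.61), Gstm1 (-0.56), Gstm3 (-0.40), Sult1c2 (-1.60), Ugt1a2 (-0.41) and the alpha-class and mu-class sums (-0.70 and -0.51) were called, and Gstp3 (0.61) and Ugt1a10 (-0.42) lost their call, where 57.1% of all genes were called.

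The mu-class GSTs lie in 1 cluster on chromosome 3 (chr3:107803137-107952210, GRCm39) and conjugate glutathione to epoxides and quinones. Gstm2 was at 76.9, 82.3 and 76.4 RPF CPM in WT mice at day 4 and at 250.3, 424 and 391 CPM in B mice, a rise of 2.16 ± 0.17 (log2 ± SE, adjusted p = 5.66e-05). BM mice at day 4 held 291, 282 and 305 CPM (1.92 ± 0.08, adjusted p = 7.24e-08), whereas M mice held 61.1, 66.6 and 60.3 CPM (-0.29 ± 0.08). All B and BM mice were thus above, and all M mice below, every WT mouse of that day. At day 10 the B mice held 442, 395 and 308 CPM and the BM mice 324, 225 and 231 CPM against 102, 81.7 and 102 CPM in WT (1.98 ± 0.16 and 1.43 ± 0.2). RNA changed by 2.31 in B and 1.97 in BM mice at day 4 and by 2.22 and 1.76 at day 10.

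Gstm3 was high in B mice on both days and, in BM mice, at day 4. It was at 72.1, 68.5 and 68.1 CPM in WT mice at day 4, at 278, 408 and 332 CPM in B mice (2.27 ± 0.13, adjusted p = 2.3e-05) and at 169.6, 179 and 169.7 CPM in BM mice (1.34 ± 0.08). At day 10, WT mice were at 112, 87.7 and 95.1 CPM, B mice at 288, 306 and 258 CPM (1.52 ± 0.13, adjusted p = 0.000176), and BM mice at 84.5, 82.7 and 103 CPM, with overlapping ranges and no call (-0.14 ± 0.16, adjusted p = 0.535). Gstm3 was lower in M mice at day 4, at 44.9, 43.1 and 32.2 CPM (-0.76 ± 0.12). M mice at day 10 were split, at 20.2, 27.4 and 205 CPM, and the change was not called (-0.23 ± 0.74, adjusted p = 0.866). Without M mouse 3, the library that stood apart, it was -2.04 ± 0.17 (adjusted p = 0.000216), and Gstm2 went from -0.74 ± 0.26 (adjusted p = 0.1, not called) to -1.14 ± 0.14 (adjusted p = 0.00119).

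Gstm6 followed the same order at day 4, at 86.6, 86.6 and 84.9 CPM in WT, 181, 289.7 and 283 CPM in B, 74.2, 73.2 and 59.5 CPM in M and 129, 129 and 139 CPM in BM mice. The changes were 1.53 ± 0.15 in B, 0.64 ± 0.07 in BM and -0.29 ± 0.09 in M mice. At day 10 it was higher in B (0.85 ± 0.13) and lower in M (-0.79 ± 0.19) and BM (-0.65 ± 0.16) mice. The M call was lost at day 4 without M mouse 3 or WT mouse 1, and at day 10 without WT mouse 1 or 3. Gstm1, the mu gene with the most RNA per length as reads were split, was at 2509, 2434 and 2301 CPM in WT, 3756, 4837 and 3753 CPM in B and 2816, 3136 and 3076 CPM in BM mice at day 4 (0.75 ± 0.11 and 0.34 ± 0.09). At day 10 it was at 2858, 2528 and 2568 CPM in WT and at 1534, 1766 and 1691 CPM in BM mice (-0.69 ± 0.17, adjusted p = 0.0177), with no call in B mice (-0.01 ± 0.12).

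Gstm4 fell in BM mice at day 10, from 93.3, 63.6 and 63.1 CPM in WT to 18.9, 9.62 and 11.2 CPM (-2.48 ± 0.29, adjusted p = 0.00106, RNA -2.82). Without BM mouse 1 the RNA change was -3.61. At day 4 it was higher in B (0.78 ± 0.09) and BM (0.26 ± 0.08) mice. Summed over the subfamily, mu-class RPFs were at 2862, 2794 and 2663 CPM in WT, 4644, 6149 and 4943 CPM in B and 3532, 3855 and 3809 CPM in BM mice at day 4 (0.9 ± 0.11 and 0.45 ± 0.09). The sum at day 10 was at 3359.6, 2922 and 3012 CPM in WT and at 2093, 2196 and 2148 CPM in BM mice (-0.54 ± 0.17, adjusted p = 0.0394), and this call was lost without any 1 of 4 mice (BM mouse 2 or 3, WT mouse 1 or 3) and with a replicate block (-0.54).

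**Figure D3:**
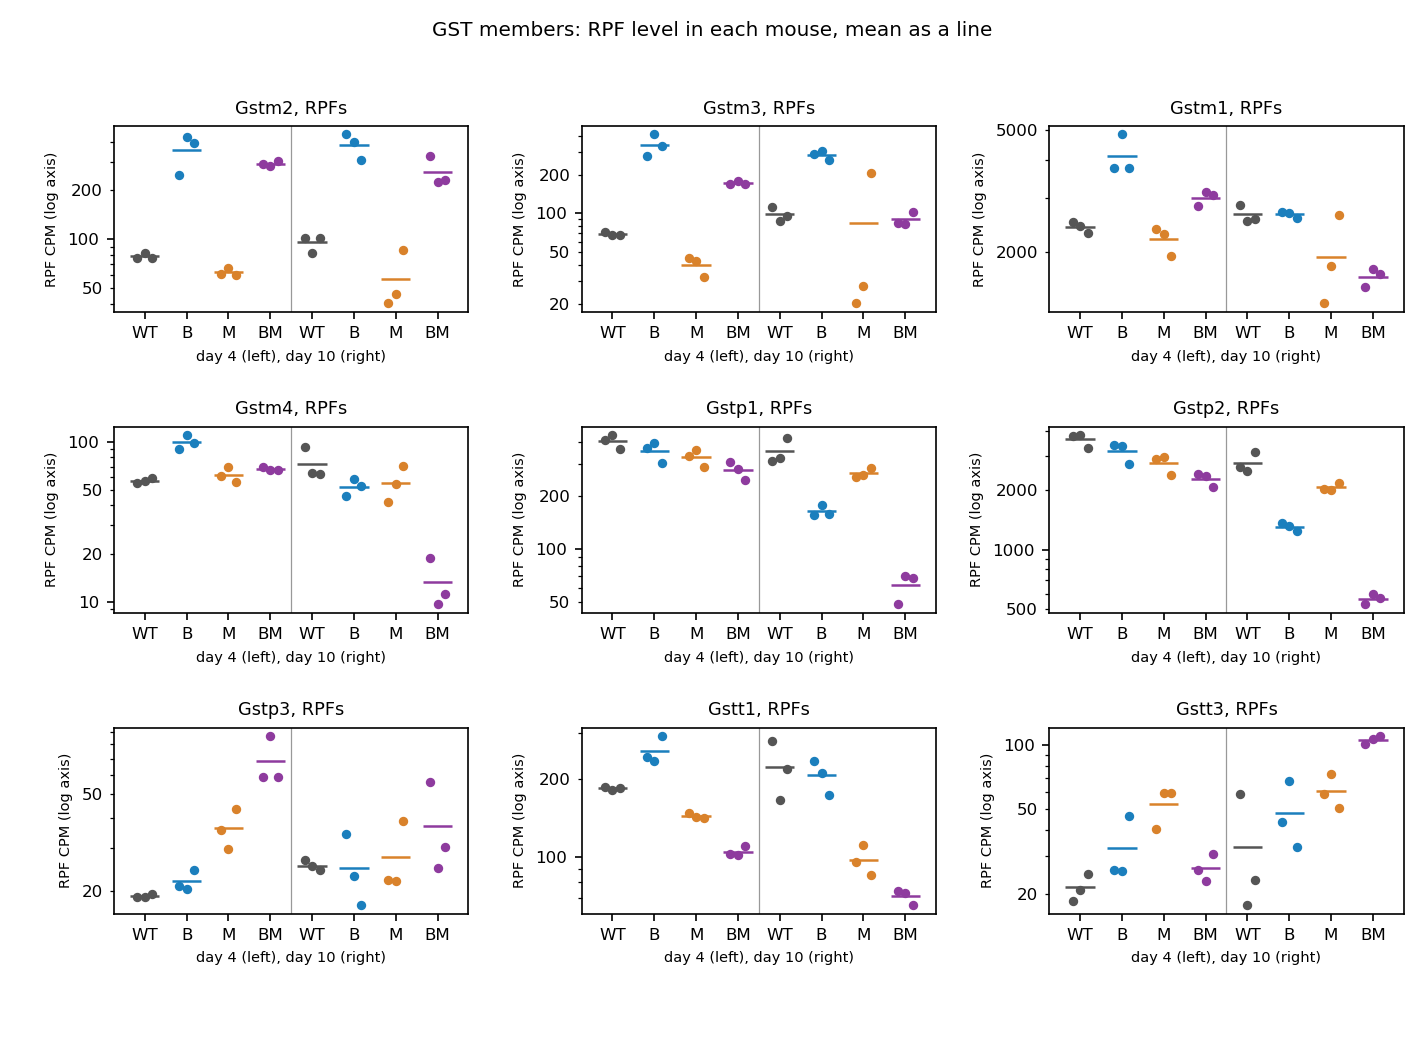
RPF level (CPM, log axis) of 9 GST genes in each mouse, 1 point per mouse and the group mean as a line, day 4 left and day 10 right of the grey line in each panel. Gstm2 lies above WT in all B and BM mice of both days, Gstp1 and Gstp2 are lowest in BM mice at day 10, and 1 M mouse at day 10 lies far above the other two for Gstm3.

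Alpha-class GSTs also reduce lipid peroxides. Gsta3 was at 1692, 1645 and 1695 CPM in WT and at 2004, 2279 and 2366 CPM in B mice at day 4 (0.39 ± 0.09, adjusted p = 0.022). In BM mice it was higher at day 4 (0.2 ± 0.08) and lower at day 10, at 1179.9, 1219 and 1292 CPM against 1702, 1545 and 1787 CPM (-0.46 ± 0.16, adjusted p = 0.059). Gsta2, a gene at low level that shares 84% of its windows, was at 8.0, 8.01 and 6.33 CPM in WT and 14.3, 13.6 and 20.0 CPM in M mice at day 4 (1.12 ± 0.18), and its change in BM mice at day 10 was 1.37 ± 0.31. The summed alpha class rose by 0.41 ± 0.09 in B and 0.22 ± 0.08 in BM mice at day 4, and the BM call was lost without WT mouse 2 (0.20).

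The pi-class genes Gstp1 and Gstp2, of which a stretch with 5 of their 12 differences is printed above, were lower in all 3 genotypes at day 10. Gstp1 was at 316, 327 and 424 CPM in WT, 155, 177 and 158 CPM in B, 255, 262 and 285 CPM in M and 48.5, 69.9 and 68.6 CPM in BM mice. Gstp2 was at 2632, 2500.3 and 3122 CPM in WT, 1362, 1323 and 1239 CPM in B, 2043, 2001 and 2172 CPM in M and 529.8, 596 and 570.1 CPM in BM mice. For both genes every BM mouse was below every B mouse, every B mouse below every M mouse and every M mouse below every WT mouse. Gstp1 and Gstp2 changed by -1.14 and -1.09 in B, by -0.41 and -0.41 in M, and by -2.53 and -2.3 in BM mice. Their reads are hard to tell apart, and the sum with Gstp3, which does not depend on that, changed by -1.08 ± 0.13 in B, -0.41 ± 0.14 in M and -2.25 ± 0.18 in BM mice. The M call for the sum (adjusted p = 0.0889) was lost without any filter on low counts, with a replicate block (-0.40) and without M mouse 1, M mouse 2, WT mouse 1 or WT mouse 3. RNA of both genes fell in BM mice at day 10 (-1.96 ± 0.17 and -1.71 ± 0.19) but was not called in B mice (-0.08 ± 0.25 and -0.07 ± 0.24).

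Gstp3, which shares only 0.6% of windows, was higher at day 4. It was at 18.8, 18.8 and 19.4 CPM in WT, 35.5, 29.9 and 43.4 CPM in M and 59, 86.5 and 58.8 CPM in BM mice (0.96 ± 0.13 and 1.86 ± 0.15). At day 10 the BM mice were at 55.9, 24.9 and 30.2 CPM, with no call (0.53 ± 0.29, adjusted p = 0.182, and 0.1 ± 0.14 without BM mouse 1).

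Theta-class GSTs handle small halogenated compounds. Gstt1 was at 185, 182 and 184 CPM in WT, 242, 234 and 291 CPM in B, 147, 142 and 141 CPM in M and 103, 102 and 110.2 CPM in BM mice at day 4. The changes were 0.46 ± 0.1 in B, -0.32 ± 0.07 in M and -0.78 ± 0.07 in BM mice, so B and M mice moved in opposite directions. At day 10 it was at 280.0, 165 and 219 CPM in WT, 95.8, 112 and 85.8 CPM in M (-1.18 ± 0.2) and 74, 73.1 and 65.5 CPM in BM mice (-1.66 ± 0.21). Gstt3 rose instead, from 18.6, 20.9 and 24.8 CPM in WT to 40.4, 59.3 and 59.4 CPM in M mice at day 4 (1.34 ± 0.16), and from 58.7, 17.7 and 23.2 CPM in WT to 101, 107 and 110.0 CPM in BM mice at day 10 (1.65 ± 0.41).

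Gsto1 encodes an omega-class enzyme with thioltransferase activity. At day 4 it was at 137, 144 and 139 CPM in WT, 277, 273 and 266 CPM in M and 188, 197 and 194 CPM in BM mice (0.99 ± 0.07 and 0.48 ± 0.07). At day 10 it was at 151, 152 and 132 CPM in WT, 84.6, 77.8 and 92.9 CPM in B (-0.78 ± 0.12), 268, 284 and 239 CPM in M (0.86 ± 0.12) and 166, 307 and 295 CPM in BM mice (0.81 ± 0.24). B and M mice thus lay on opposite sides of WT. Gstz1 (zeta class, tyrosine breakdown) fell in BM mice at day 4 (-0.55 ± 0.08), and Gstk1 (kappa class, mitochondrial and peroxisomal) fell in BM mice at day 4 (-0.63 ± 0.08) and day 10 (-0.5 ± 0.13).

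Sult1e1, the estrogen sulfotransferase, was almost absent from WT livers and abundant in BM livers at day 10. WT mice had at most 3 counts per RPF library at day 10, or 0.175, 0 and 0.361 CPM, and BM mice had 282, 867 and 954 CPM. Set against a floor of 3 counts per library, this was at least 2262-fold higher in RPFs and, with at most 1 count in WT RNA libraries, at least 729-fold higher in RNA. B mice at day 10 held 1.41, 3.09 and 1.17 CPM, at least 6.09-fold higher than WT, and M mice held 1.32, 0.733 and 1.77 CPM and were not tested. At day 4 no library of any genotype was above 0.545 CPM. BM mouse 1 was the lowest of its group but still above every mouse of the other groups.

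Sult1a1 (phenols) and Sult1d1 (catecholamines) also rose in BM mice at day 10. Sult1a1 was at 309, 284 and 307 CPM in WT, 640.1, 776 and 488 CPM in B (1.06 ± 0.16), 165, 202 and 189 CPM in M (-0.7 ± 0.12) and 808, 1038 and 1133 CPM in BM mice (1.71 ± 0.19). At day 4 it was instead lower in BM mice, at 157, 156 and 183 CPM against 212, 237 and 259 CPM in WT (-0.49 ± 0.1), and higher in B mice (0.63 ± 0.13). Sult1d1 was at 94.4, 72.2 and 155 CPM in WT, 201, 208 and 174 CPM in B (0.84 ± 0.24), 186, 182 and 168 CPM in M (0.74 ± 0.24) and 190.2, 717 and 673 CPM in BM mice (2.28 ± 0.51, adjusted p = 0.0114). BM mouse 1 was within the range of the B mice, and without it the change was 2.69 ± 0.25. The M call was lost without M mouse 1, M mouse 2, WT mouse 1 or WT mouse 2.

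Sult1c2, a gene at low level, was at 1.38, 3.89 and 2.03 CPM in WT and 6.14, 5.06 and 5.36 CPM in M mice at day 4 (1.25 ± 0.31). In BM mice at day 10 it was at 3.94, 1.79 and 2.31 CPM against 4.99, 5.01 and 4.57 CPM (-0.85 ± 0.31, adjusted p = 0.065), a call that was lost without BM mouse 2, BM mouse 3 or any 1 of the WT mice. Without BM mouse 1 it was -1.26 ± 0.25 (adjusted p = 0.00133). The Sult1 sum rose by 0.96 ± 0.17 in B and 2.34 ± 0.31 in BM mice at day 10.

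Sult2a8, a liver bile acid sulfotransferase and the SULT gene with the most RNA per length in WT, fell in BM mice at day 10. It was at 649, 408 and 809 CPM in WT, 528, 425 and 427 CPM in B, 752, 790.4 and 468 CPM in M and 31.7, 39.5 and 34.1 CPM in BM mice. The change in BM mice was -4.16 ± 0.29 (adjusted p = 0.000117), and that of RNA was -4.36 ± 0.3. At day 4 the ranges overlapped, at 441, 672 and 445 CPM in WT and at 459.5, 538 and 452 CPM in BM mice (-0.08 ± 0.15, adjusted p = 0.702).

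Sult2a7 was higher in M mice, at 2.63, 2.53 and 3.0 CPM against 0.368, 0.85 and 0.678 CPM in WT at day 4 (2.16 ± 0.32) and at 14.4, 16.3 and 3.23 CPM against 0.612, 0.511 and 0.361 CPM at day 10 (4.46 ± 0.7). M mouse 3 was the lowest of the last group, and without it the change was 4.9 ± 0.24. BM mice, which carry the same MYC allele, held 0.367, 0.459 and 0.529 CPM at day 4 and 1.16, 0.699 and 0.496 CPM at day 10 and were not tested against WT. Directly against M mice, their difference was -2.58 ± 0.28 at day 4 and -3.83 ± 0.67 at day 10. Sult2a1, a hydroxysteroid sulfotransferase, was at 0 in every WT mouse at day 10 and at 0.87, 3.26 and 4.05 CPM in BM mice, at least 8.80-fold higher, and it shared 45.4% of its windows with other Sult2a genes.

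**Figure D4:**
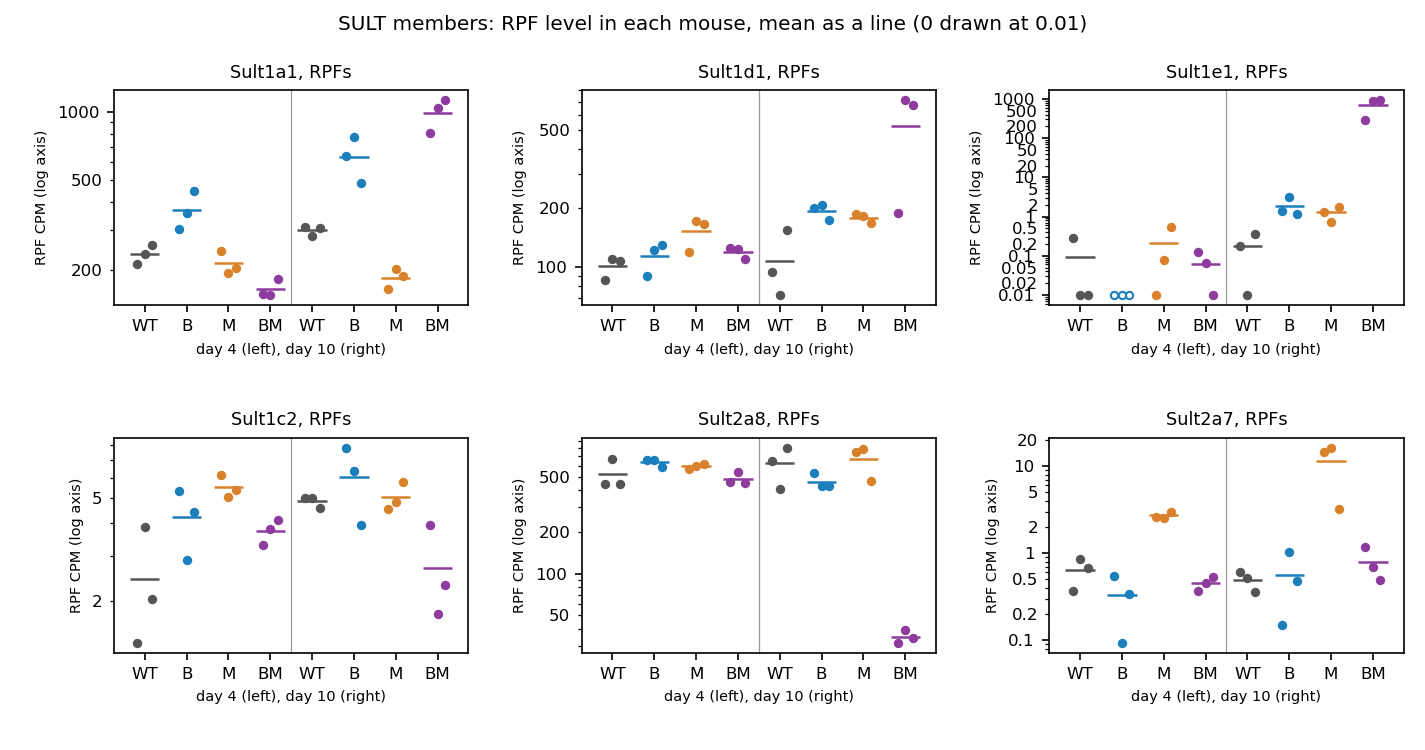
RPF level (CPM, log axis, mice at 0 drawn at 0.01) of SULT genes in each mouse, 1 point per mouse and the group mean as a line, day 4 left and day 10 right of the grey line. In BM mice at day 10, Sult1e1, Sult1d1 and Sult1a1 lie above and Sult2a8 below all WT mice, while Sult2a7 is high in M mice.

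The UGT1A enzymes include Ugt1a1, which glucuronidates bilirubin. Ugt1a1 was at 1238, 1242 and 1246 CPM in WT and at 1600.3, 2002 and 1803 CPM in B mice at day 4 (0.52 ± 0.09, adjusted p = 0.00648). It was higher also in M mice at day 4, at 1398, 1390.2 and 1406 CPM (0.2 ± 0.06), a call that was lost without M mouse 1, M mouse 3, WT mouse 1 or WT mouse 3. Ugt1a5 and Ugt1a2 changed more. Ugt1a5 was at 33.9, 29 and 44.7 CPM in WT and at 92.4, 149 and 118 CPM in B mice at day 4 (1.72 ± 0.18), and Ugt1a2 was at 8.28, 5.1 and 9.95 CPM in WT and at 17.6, 31.2 and 29.5 CPM in B mice (1.72 ± 0.25).

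At day 10, Ugt1a5 was at 86.5, 47.2 and 74.2 CPM in WT, 99.6, 129 and 105 CPM in B (0.66 ± 0.21) and 33.7, 42.9 and 27.5 CPM in M mice (-1.0 ± 0.24). Both calls of Ugt1a5 at day 10 were lost without WT mouse 3, the B call also without B mouse 2 and the M call also without WT mouse 1. Ugt1a2 was at 15.3, 11.1 and 13.5 CPM in WT, 20.8, 26.8 and 20.0 CPM in B (0.74 ± 0.16) and 5.12, 8.79 and 5.15 CPM in M mice (-1.07 ± 0.24). For both genes the B mice lay above and the M mice below WT.

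Ugt1a6a, a phenol-conjugating form, was at 86.2, 78.8 and 101 CPM in WT and at 34.9, 46.6 and 42 CPM in BM mice at day 10 (-1.12 ± 0.17). Ugt1a8 was at 13.6, 9.21 and 10.5 CPM in WT and 3.94, 4.42 and 4.05 CPM in BM mice (-1.44 ± 0.22). The Ugt1a sum, at 2146, 1575 and 2158 CPM in WT and 1288, 1617 and 1689.8 CPM in BM mice at day 10, was not called there (-0.37 ± 0.21, adjusted p = 0.197), and it rose in B mice at day 4 (0.46 ± 0.09).

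UGT2B enzymes glucuronidate steroids and bile acids. Ugt2b1 was at 1216, 1005 and 1600.4 CPM in WT, 779, 669.8 and 810.5 CPM in B (-0.77 ± 0.18) and 175, 329 and 346 CPM in BM mice (-2.18 ± 0.31, RNA -2.77) at day 10. At day 4 it was at 1553, 1565 and 1400.4 CPM in WT and at 1015, 1132 and 977 CPM in BM mice (-0.51 ± 0.09). Ugt2b5 was at 2028, 1491 and 2164 CPM in WT, 1142, 1041 and 998 CPM in B (-0.85 ± 0.16) and 412, 505 and 597 CPM in BM mice (-1.92 ± 0.23) at day 10. For both genes all BM mice lay below all B mice, and all B mice below all WT mice. Summed UGT2B RPFs were at 6923, 5338 and 7759.9 CPM in WT, 5123, 4819 and 4526 CPM in B and 2253, 2698 and 2972 CPM in BM mice (-1.35 ± 0.23 for BM, adjusted p = 0.00378). The lower sum in B mice (-0.49 ± 0.16, adjusted p = 0.0694) lost its call without any 1 of the B mice, WT mouse 1 or WT mouse 3.

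Ugt2b34 rose in B mice and fell in M mice on both days. At day 4 it was at 789.8, 769 and 767 CPM in WT, 1087, 1313 and 1195 CPM in B, 590.0, 667 and 605 CPM in M and 975, 901 and 849.7 CPM in BM mice (0.61 ± 0.09, -0.29 ± 0.07 and 0.25 ± 0.08 in B, M and BM). At day 10 the WT mice were at 813, 644 and 839 CPM, B mice at 1106, 1077 and 924 CPM (0.42 ± 0.14), M mice at 529, 564 and 518 CPM (-0.51 ± 0.13) and BM mice at 364, 387 and 409 CPM (-1.0 ± 0.17). BM mice thus lay above WT at day 4 and below all M mice at day 10. The B call at day 10 was lost without B mouse 1, B mouse 2 or any 1 of the WT mice, and the M call without M mouse 1, WT mouse 1 or WT mouse 3 and with a replicate block (-0.50).

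Ugt2b38 was lower in all 3 genotypes on both days. It was at 52.9, 84.7 and 53.8 CPM in WT, 44, 21.4 and 18 CPM in B, 19.5, 27.3 and 31.2 CPM in M and 9.11, 7.21 and 5.09 CPM in BM mice at day 4. At day 10 it was at 38.8, 46.9 and 40.1 CPM in WT, 11.2, 7.2 and 7.3 CPM in B, 32, 25.4 and 17.2 CPM in M and 0.116, 0.155 and 0.165 CPM in BM mice, whose libraries held at most 2 counts each. Every mouse of the 3 genotypes was below every WT mouse of its day, and BM mice at day 10 were at least 192-fold lower than WT. RNA at day 10 was at 301, 227 and 296 CPM in WT and at 48.1, 47.2 and 51.9 CPM in BM mice (-2.49 ± 0.15).

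UGT3A enzymes use other sugar donors than UDP-glucuronic acid. Ugt3a2 was at 122, 80.4 and 109 CPM in WT, 43.1, 41.1 and 51.9 CPM in B (-1.21 ± 0.17) and 11.4, 16.5 and 16.4 CPM in BM mice (-2.83 ± 0.23, adjusted p = 0.00023) at day 10. Ugt3a1 was at 711, 536 and 773 CPM in WT and at 328, 355 and 371 CPM in BM mice (-0.95 ± 0.19). Ugt2a3, of the UGT2A subfamily, was at 787, 676 and 842 CPM in WT and at 250.5, 455 and 484 CPM in BM mice (-0.97 ± 0.26), with BM mouse 1 lowest.

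**Figure D5:**
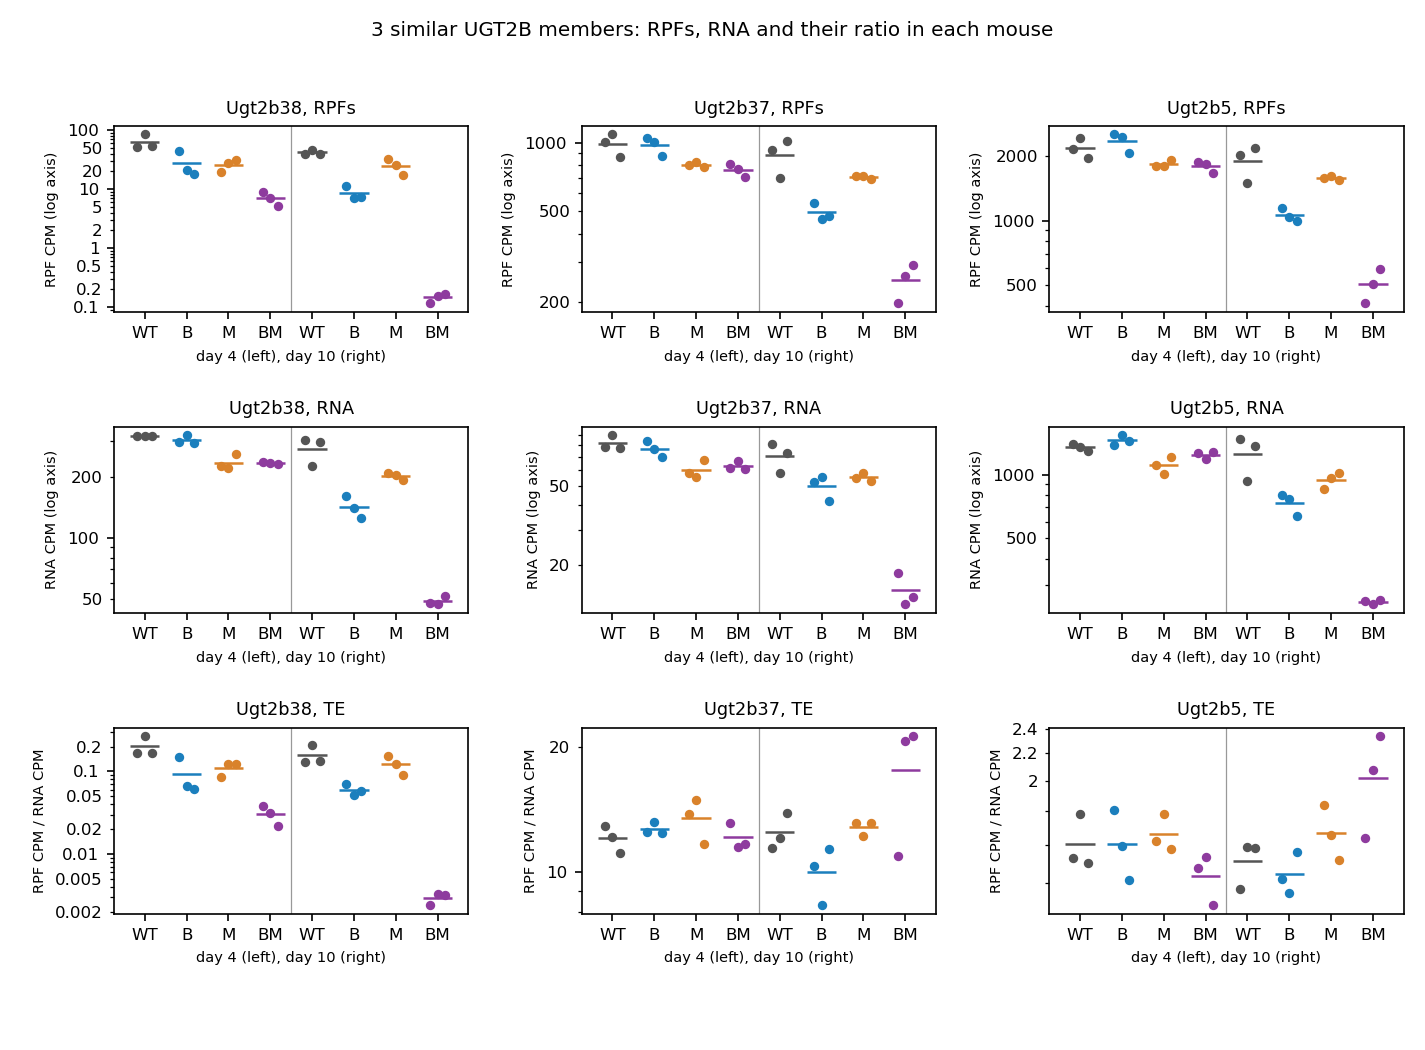
Level of UGT2B genes in each mouse (log axis), 1 point per mouse and the group mean as a line, day 4 left and day 10 right of the grey line, for RPFs, RNA and their ratio as each panel's title says. Ugt2b38 RPFs are at 0.116 to 0.165 CPM in BM mice at day 10, while its RNA is at 47.2 to 51.9 CPM.

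With all mice and no term for each mouse, TE changes were few, and Ugt2b38 was the only member called, at -2.76 ± 0.24 in BM mice at day 4 (adjusted p = 1.82e-05), -5.64 ± 0.29 in BM mice at day 10 (adjusted p = 8.88e-07) and -1.35 ± 0.23 in B mice at day 10 (adjusted p = 0.0785). Without BM mouse 1, 8 of 45 members were called in BM mice at day 10 (5 higher and 3 lower), as were 21.1% of all genes. Of these, Gstk1 (0.65), Gstm7 (0.63), Gsto1 (0.53), Gstz1 (0.53) and Ugt2b37 (0.70) were higher and Ugt1a10 (-1.05), Ugt1a8 (-0.96) and Ugt2b38 (-5.47) lower. With all mice, genes were called at 2.13%, 0.278% and 0.0564% in these comparisons. With at most 2 RPF counts per library, the fitted value of BM mice at day 10 depends on the prior count of the fit and is no bound. The call in B mice was lost without B mouse 2 or any 1 of the WT mice. In B mice at day 4 (all genes, 0.0391%), M mice at day 4 (1.11%) and M mice at day 10 (0.0%), edgeR called 0 members, with 5, 6 and 2 members at an unadjusted p under 0.05, and DESeq2 called 0, 1 and 0. The RPF to RNA ratio of Ugt2b38 was 0.129, 0.207 and 0.136 in WT and 0.00241, 0.00329 and 0.00318 in BM mice at day 10. With all mice, Ugt2b5 and Ugt2b37, with which it shares sequence, were not called (0.36 ± 0.3 and 0.36 ± 0.3 in BM mice at day 10). The TE of the Ugt2b sum, which does not depend on how reads were split among these genes, was not called in BM mice at day 10 either (0.25 ± 0.3, adjusted p = 0.827), nor without BM mouse 1 (0.44, adjusted p = 0.275). Ugt2b38 held 334 to 458 of the sum's 52187 to 79143 RPF counts in WT mice at day 10, and 1159 to 1455 of its 19780 to 26952 RNA counts. With so small a part, the sum is no test of Ugt2b38, and whether its TE change came from how reads were split was not tested.

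The RPFs and RNA of a mouse are paired, and with a term for each mouse (replicate block) TE counts were higher. In that fit 5 members were called in B mice (all genes, 0.274%), 5 in M mice (3.05%) and 6 in BM mice (7.46%) at day 4, and 7 in B mice (2.59%), 1 in M mice (0.344%) and 3 in BM mice (5.67%) at day 10. Ugt2b38 was among them in 5 of the 6 comparisons, with -2.74 and -5.64 in BM mice. In B mice at day 10, Gstp1 and Gstp2 had lower TE in this fit (-0.95 ± 0.2 and -0.95 ± 0.19), as had their subfamily sum (-0.91 ± 0.19, adjusted p = 0.00733). Ugt1a2 had higher TE in B mice at day 4 (1.22 ± 0.17) and day 10 (0.57 ± 0.17) and lower TE in M mice at day 10 (-0.97 ± 0.2). Gstm3 had lower TE in M mice at day 4 (-0.79 ± 0.15), and the mu-class sum had lower TE in BM mice at day 4 (-0.39 ± 0.11). Ugt1a10 was lower in 5 and Ugt1a8 in 4 of the 6 comparisons. Ugt1a10, Ugt1a8 and Ugt1a2 share 58%, 55.9% and 54.3% of their windows with other members, so their TE may depend on how reads were split. Apart from Ugt2b38, none of these members was called with all mice in the fit without a term for each mouse.

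Directly against B mice, BM mice at day 4 had 2 members higher and 29 lower of 44 (all genes, 23.2% and 21.6%), and at day 10 had 9 higher and 27 lower of 47 (18.8% and 17.7%). Against M mice they had 9 higher and 19 lower of 45 at day 4 (18.9% and 19.3%), and 9 higher and 21 lower of 47 at day 10 (16% and 16.8%). Gstm2 differed by 2.21 ± 0.07 and 2.17 ± 0.3 from M mice at day 4 and day 10 (log2), and by -0.24 ± 0.16 (not called) and -0.54 ± 0.21 from B mice. Sult2a8 was lower in BM mice at day 10 than in B mice (-3.69 ± 0.19) and M mice (-4.28 ± 0.28). Gstp2 was lower than in B (-1.19 ± 0.15) and M mice (-1.89 ± 0.16).

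The change in the B effect from day 4 to day 10 was tested as an interaction, and it was negative for 19 and positive for 0 of 45 members (positive and negative over all genes, 8.39% and 8.81%), where DESeq2 gave 1 positive. In BM mice it was positive for 6 and negative for 26 of 46 (17.1% and 18.6%). In M mice edgeR called 0 of 45 (0.633% and 0.546%), with 14 members at an unadjusted p under 0.05 and 5 calls in DESeq2, and without M mouse 3 of day 10 the count was 13. In WT mice 3 of 44 members were higher at day 10 than at day 4 and 0 were lower (2.17% and 2.28%), namely Gstm3 (0.5), Gstp3 (0.42) and Ugt1a5 (0.95), with 16 members at an unadjusted p under 0.05 and 9 calls in DESeq2. This count was 0 without WT day 4 mouse 1 and 13 without WT day 10 mouse 2.

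The cosubstrates are made by other genes, of which 8 were tested. Gclc, the catalytic subunit of the first enzyme of glutathione synthesis, fell at day 10 in B (-0.95), M (-0.44) and BM mice (-1.88), and Gclm, its modifier subunit, fell in BM mice (-0.6). Papss2, which makes PAPS, rose in B (0.7), M (0.5) and BM mice (0.35) at day 4, and Papss1, its paralogue, fell in BM mice at day 10 (-1.6). Of the 8 genes, 2 rose and 4 fell in BM mice at day 10, 1 rose and 1 fell in B mice and 1 rose and 2 fell in M mice. At day 4, 2 rose and 1 fell in B and in M mice, and 3 rose and 1 fell in BM mice. The shares of all genes that rose and fell, against which the counts of this and the next lists stand, were 6.21% and 6.27% in B, 18.5% and 14.8% in M and 26.2% and 24.7% in BM mice at day 4, and 13.1% and 12.1%, 10.6% and 8.81% and 24.5% and 22.3% at day 10. Nothing particular to these lists is read from counts over so few genes.

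Among 7 other conjugating enzymes, 5 fell in BM mice at day 4, and 1 rose and 6 fell at day 10. Nnmt, which methylates nicotinamide, was at -3.24 at day 4 and 3.08 at day 10, and Glyat, which joins glycine to acids, was at -1.68 at day 10. In B mice 2 fell at day 4, and 1 rose and 2 fell at day 10, and in M mice 4 fell at day 4. Of the export pump genes, Abcc2 and Abcc3 moved apart in BM mice at day 10 (1.07 and -1.23), and Abcc3 fell in B mice (-2.48). Of 4 pumps, 3, 2 and 2 rose at day 4 in B, M and BM mice, and 2 rose and 1 fell in BM mice at day 10.

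Of 6 NRF2 pathway genes, 1 rose and 1 fell in B, 1 rose and 3 fell in M and 3 rose and 1 fell in BM mice at day 4. At day 10, 3, 1 and 2 rose, and 1 fell in BM mice. Nqo1, a quinone reductase, rose in B (1.08) and BM mice (1.31) at day 4 and in B (0.85) and BM mice (0.84) at day 10. Of 8 transcription regulators of conjugation genes, 2, 1 and 2 rose and 2, 2 and 4 fell in B, M and BM mice at day 4. Ahr, a receptor for aromatic compounds, rose in B (0.91) and BM mice (0.68) at day 4 and in B (1.53) and BM mice (1.4) at day 10.

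Marker genes of the lobule also changed. All 9 zone 3 (pericentral) markers rose in B and in BM mice at day 4, and 8 and 5 of 9 at day 10. Their summed levels were 17637 to 24644 CPM in these mice at day 4 against 8856 to 9551 CPM in WT, and 18528 to 27891 CPM against 6839.7 to 11618 CPM at day 10. In B mice at day 4, 3 of 8 zone 1 markers fell, and their sum was 9693 to 11899 CPM, below every WT mouse. All 8 zone 1 markers fell in BM mice at day 4 and in B mice at day 10, with sums of 4922 to 5418 CPM against 14179 to 16548 CPM and of 6906 to 7207 CPM against 13851 to 14848 CPM. In BM mice at day 10, 1 of the 8 rose and 3 fell, with sums of 9519, 28050 and 29251 CPM. In M mice 3 of 9 zone 3 markers fell at day 4 and 1 at day 10. Of 8 male-biased genes, 7 were lower in BM mice at day 10, with a median of -3.28 and sums of 2685 to 3285 CPM against 8492 to 11737 CPM in WT. Such genes numbered 7 in BM mice at day 4 and 6 in B mice at day 10. Of 9 female-biased genes, 3 could be tested in BM mice at day 10, of which 1 rose and 1 fell. The female-biased sum was lower in B (509.8 to 593 CPM) and BM mice (521 to 1077 CPM) than in WT (1260.3 to 1951 CPM) at day 10, with no overlap. Hepatocyte markers, 5 in all, summed to 64045 to 73986 CPM in WT, 54598 to 65723 CPM in B, 41523 to 54229.9 CPM in M and 30433 to 36724 CPM in BM mice at day 4, and to 62822 to 81144 CPM in WT, 32201 to 35921 CPM in B, 35257 to 38598 CPM in M and 24836 to 32392 CPM in BM mice at day 10. Of the 5, 2 fell in B, 5 in M and 5 in BM mice at day 4, 3 in B and 3 in M mice at day 10, and 3 fell and 1 rose in BM mice at day 10.

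Markers of other liver cells, 5 in each list, moved as well. Kupffer cell markers summed to 376 to 433 CPM in WT and 205 to 223 CPM in BM mice at day 4, where all 5 fell, and to 284 to 406 CPM in WT and 349 to 385 CPM in BM mice at day 10, where 2 rose. In B and M mice at day 4 the Kupffer sums were 285 to 339 CPM and 248 to 527 CPM. Stellate cell markers summed to 695 to 794 CPM in WT, 378 to 542 CPM in B, 519 to 602 CPM in M and 419.9 to 604 CPM in BM mice at day 10, with 4 lower in B and 4 in BM mice. At day 4 their sums were 645 to 698 CPM in WT, 644 to 748 CPM in B, 521 to 606 CPM in M and 418 to 507 CPM in BM mice. Lymphocyte and blood markers summed to 360.5 to 426 CPM in WT, 524 to 794 CPM in B and 199 to 306 CPM in M mice at day 10, and ranged over 209 to 788 CPM in BM mice. Of these, 1 rose in B and 1 in BM mice and 1 fell in M mice. Day 4 sums of this list were 358 to 373 CPM in WT, 266 to 495 CPM in B, 173 to 284 CPM in M and 169 to 237 CPM in BM mice. Endothelial markers ranged over 609 to 732 CPM in WT and 448 to 645 CPM in the other mice at day 10, with 3 lower in B, 3 lower in M, and 3 lower and 1 higher in BM mice. At day 4 these sums were 619 to 699 CPM in WT, 630 to 701 CPM in B, 468 to 571 CPM in M and 496 to 557 CPM in BM mice. Cholangiocyte markers ranged over 43.6 to 84.3 CPM in WT and 35.7 to 100.0 CPM in the other mice at day 10, with 1 higher in M and 1 lower in BM mice. At day 4 they summed to 85.7 to 133 CPM in WT, 59.6 to 63.8 CPM in B, 43.8 to 62.8 CPM in M and 36.1 to 53.9 CPM in BM mice, all below every WT mouse. The part of the shifts of all these marker lists in the results was not tested.

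Promoters from 250 bases before to 50 bases after a start site were available from RefSeq on GRCm38.p6 for 54 members, with 65 start sites. The motif CTTTGAA of TCF/LEF, the DNA-binding partners of β-catenin, searched on both strands, was in 10.8% of member promoters and 5.14% of 32851 promoters of the same length, and the form CTTTGAT in 1.54% and 3.73%. The antioxidant response element core TGACNNNGC was in 4.62% and 12.4%, and the E-box CACGTG, a MYC motif, in 0% and 7.15%. The promoter of Gstm3 is printed because this gene had the largest fitted rise of the members in B mice at day 4, at chr3:107969125-107969424 on the minus strand, with CTTTGAA as read on the opposite strand in capitals.
Gstm3: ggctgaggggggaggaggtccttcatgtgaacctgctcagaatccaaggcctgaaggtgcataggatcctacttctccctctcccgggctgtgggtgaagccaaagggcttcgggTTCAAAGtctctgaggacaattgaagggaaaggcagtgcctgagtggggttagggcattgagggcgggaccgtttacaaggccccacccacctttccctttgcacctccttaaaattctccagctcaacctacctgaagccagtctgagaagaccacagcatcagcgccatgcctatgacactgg
These matches are a description of the letters and say nothing of binding.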

How the data were processed

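RPFs and paired cytoplasmic RNA of 24 mouse livers were used, with groups from the sample titles. According to the labels and the study's methods, the authors trimmed reads with Cutadapt 1.18, removed duplicates by molecular identifier, aligned RPFs to the most abundant transcript of each gene (GENCODE vM27, GRCm39) and deposited whole-number counts of footprints of 30 to 38 bases per coding region, leaving out 20 codons at its start and 10 at its end. For RNA, the authors aligned with Bowtie2 2.3.5.1 and deposited RSEM 1.3.3 expected counts, which were rounded to whole numbers here (at least 99.92% already were), and TPM values, used only for levels per length. Both kinds were summed or kept per gene symbol.

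Genes passing edgeR's filterByExpr (minimum count 10, total 15) were tested with edgeR 4.0.16 (TMM, glmQLFit and glmQLFTest, two-sided) in R 4.3.3 on the mice of the groups compared, with Benjamini-Hochberg adjustment over all genes and calls under 0.1. TE was the interaction of group and library type. For mice of 1 number, RPFs and RNA deviated together (correlation 0.312 to 0.688 over 7186 genes, best with their own mouse in 24 of 24), as the labels pair them. The alternatives were DESeq2 1.42.0, RLE size factors, no filter, a replicate block and leaving out each mouse. Fits were tested on simulated data. The floor was 3 counts per library, and it covers counting error only. Nothing states litters or batches beyond mice, so p-values measure the spread between these mice.

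Named members were, per family and comparison with WT, up to 2 largest rises and falls among called members whose groups did not overlap, every member called on TE, the member of each subfamily highest in TPM, and members called oppositely in B and M on 1 day. The 3 families and the gene lists were chosen with earlier results of these data known, and membership in a family follows from the gene symbol alone. Windows were read from GENCODE vM39 coding sequences of the same assembly, in which 10 of 55 transcripts kept the same version as in the files.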

Additional observations from a re-analysis of the deposited data

Results flagged for a closer look

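For 21 results the change against WT differed between day 4 and day 10 in an interaction test on RPFs (edgeR, adjusted p under 0.1 over all genes). Among named members, 6 differed in B mice: Gstm3 by -0.75 (log2, day 10 minus day 4), Gstp1 by -0.94, Gstp2 by -0.88, Ugt1a2 by -0.98, Ugt1a5 by -1.06 and Ugt3a2 by -1.49. For Gstm3, Ugt1a2 and Ugt1a5 the rise over WT was smaller at day 10, and for the other 3 a fall appeared at day 10 that was not called at day 4. WT levels moved too: Gstm3 (0.50) and Ugt1a5 (0.95) were higher in WT at day 10 than at day 4, and Ugt1a2 was at 0.77 (edgeR, adjusted p = 0.102, not called). Mean RPF levels of Ugt1a5 were 119.7 and 111 CPM in B mice at day 4 and day 10, and 35.9 and 69.3 CPM in WT.

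In BM mice 15 named members differed. The difference was negative for Gstm4 (-2.73), Gstp1 (-2.0), Gstp2 (-1.65), Gstp3 (-1.32), Gstt1 (-0.86), Sult1c2 (-1.51), Sult2a8 (-4.07), Ugt2b1 (-1.66), Ugt2b34 (-1.24), Ugt2b38 (-4.97) and Ugt3a2 (-2.61), and positive for Gstt3 (1.33) and Sult1a1 (2.21). Gstp3 was also higher in WT at day 10 than at day 4. Gstm4 and Ugt2b34 were higher than WT at day 4 and lower at day 10, and Sult1a1 was lower at day 4 and higher at day 10. Sult1c2 was at 3.30, 3.80 and 4.10 CPM in BM and 1.38, 3.89 and 2.03 CPM in WT mice at day 4, which overlap (0.68, edgeR, adjusted p = 0.0989), and its lower level at day 10 lost its call without any 1 of 5 mice. The values of Sult1e1 (12.56), Sult2a1 (8.62) and Ugt2b38 depend on the prior count of the fit, since at least 1 group had no more than 3 counts in any library, and they are no bounds.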

How the results depend on the processing

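Over all alternatives, 244 of 278 counts of called members stayed within 1.5 times the value given, and 629 of 670 changes of named members kept direction and call, with 41 losing the call and none turning sign. A replicate block by mouse raised TE counts to 5 (B), 5 (M) and 6 (BM) at day 4 and 7, 1 and 3 at day 10. DESeq2 gave 1 TE call in M mice at day 4, 5 members for the M day difference and 9 for WT day 10 against day 4, and no filter gave 1 and 7 for the last pair. RLE size factors moved no count by over 1.5 times. Numbers shared across genotypes did not pair the mice (no comparison had all correlations over 0.1), and a replicate block on them moved no count by over 1.5 times.

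Leaving out each mouse gave 8 to 18 RNA members in B and 7 to 19 in M mice at day 10, 9 to 23 RPF members in M mice at day 10, 0 to 13 for the M day difference and 0 to 13 for WT day 10 against day 4. TE counts ran from 0 to 1 in B mice at day 10, 0 to 3 in B and 0 to 1 in M mice at day 4, and 1 to 8 in BM mice at day 10. RNA calls in B mice at day 10 numbered 8 without WT mouse 3, and in M mice 7, 8, 9 and 8 without M mouse 1, M mouse 2, WT mouse 1 and WT mouse 3. TE calls in BM mice at day 10 numbered 8 without BM mouse 1. The TE call of Ugt2b38 in B mice at day 10 was lost without any 1 of 4 mice. Sums that were not called turned sign without 1 mouse: Sult2 ran from -0.18 to 0.15 in BM mice at day 4 (0.15 without WT mouse 2) and from -0.093 to 0.37 in M mice at day 10 (-0.01 without M mouse 2 and -0.093 without WT mouse 2). Ugt1a ran from -0.17 to 0.045 in B mice at day 10 (0.0086, 0.036 and 0.045 without B mouse 3, WT mouse 1 and WT mouse 3). Among named members, RPF calls lost without 1 mouse were weak ones of Gstm6, Sult1c2, Sult1d1, Ugt1a1, Ugt1a5, Ugt1a6a, Ugt1a8 and Ugt2b34. Calls of sums were lost so for Gsta (BM day 4), Gstm (BM day 10), Gstp (M day 10), Sult1 (B day 4, 0.38 to 0.43), Ugt2b (B day 10) and Ugt3a (B day 10, -0.41 to -0.30, and M day 4, -0.26). For other members only the counts above are given. Ugt2b34 in M mice at day 10 also lost its call under the replicate block (-0.50).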
